A study of Mus musculus with 17 samples.

Results

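The Hippo pathway and its YAP target genes were followed in cultured mouse ovarian follicles exposed to an inhibitor of the EGF receptor kinase. Members were the 9 genes whose symbols are Yap1, Wwtr1, Tead1, Lats1, Lats2, Amotl2, Ankrd1, Ccn1 and Ccn2, and all 9 were found among the 25198 genes of the table. A total of 8 members passed the filter on low counts and were tested. Ankrd1 did not pass.

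Gene expression was measured by RNA-seq with Smart-Seq2, which copies whole transcripts and adds no molecular identifiers, in 17 libraries, each made from 3 antral follicles pooled. Follicles came from CD1 mice 16 days old and had grown for 8 days in eIVFG, an encapsulated in vitro culture system. The 6 Tyrphostin libraries, 3 in each of 2 labelled batches, came from follicles exposed for 4 h to hCG, the hormone that triggers ovulation in culture, and to 10 µM Tyrphostin-AG1478 in DMSO. The 11 Control libraries comprised 6 of batch 1 and 5 of batch 2. All 17 samples carry an identical treatment text, which leaves unstated what Control follicles were given in place of the inhibitor, hCG and DMSO included. Separate cultures or animals behind the libraries are not named, and p-values then measure only the spread between these samples.

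In the Hippo pathway a kinase cascade ends in LATS1 and LATS2, which phosphorylate the coactivators YAP (Yap1) and TAZ (Wwtr1) and keep them out of the nucleus. Unphosphorylated YAP and TAZ bind TEAD factors on DNA and switch on genes such as Ccn1, Ccn2, Ankrd1 and Amotl2. In the ovary the pathway is known for its part in follicle growth, and Ccn2 is a well known product of granulosa cells. Phosphorylation and nuclear entry leave no direct trace in transcript counts, so only the RNA level of each component is described here.

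Short stretches that match a TEAD motif are shown first, because TEAD factors, such as Tead1 of the list, are how YAP and TAZ reach their targets. Promoter windows running from 250 bases before to 50 bases after the start of transcription (RefSeq, GRCm38.p6) were present for 7 of the 9 members, the others being Tead1 and Ccn2. The motif GGAATG was searched on both strands, where it reads CATTCC on the other strand. It was present in the windows of 6 members, against 16.6% of the 27025 genes with a window. Each 30-base stretch below is written 5′ to 3′ on the strand of the gene, with the motif in capitals.
Amotl2: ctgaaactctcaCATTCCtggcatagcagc
Ccn1: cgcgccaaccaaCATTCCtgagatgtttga
Ankrd1, distal: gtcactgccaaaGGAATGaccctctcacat
Ankrd1, proximal: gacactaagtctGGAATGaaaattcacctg
Yap1: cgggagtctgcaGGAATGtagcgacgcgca
Wwtr1: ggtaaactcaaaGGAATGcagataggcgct
Lats2: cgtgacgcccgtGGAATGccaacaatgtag
The Amotl2 stretch lies at chr9:102717727-102717756 on the plus strand, with the motif starting 65 bases before the start. The Ccn1 stretch lies at chr3:145650071-145650100 on the minus strand, with the motif starting 103 bases before the start. The other stretches lie on the minus strand at chr19:36120037-36120066 and chr19:36119950-36119979 (Ankrd1), chr9:8004720-8004749 (Yap1), chr3:57576029-57576058 (Wwtr1) and chr14:57746102-57746131 (Lats2). No window of the 7 held the AP-1 motif TGANTCA or an SRF CArG box, which were present in 8.97% and 1.81% of genes. A match of letters is a description and not a binding site. In GENCODE M21 (GRCm38) the Amotl2 gene spans chromosome 9, 102716672 to 102733418, and the Ccn1 gene chromosome 3, 145646976 to 145649981. Starts of transcription are those of RefSeq, and the stretches of Amotl2, Lats2 and Ankrd1 lie inside the GENCODE spans of these genes, which begin at another, upstream start. Lats2 spans chromosome 14, 57689662 to 57758388, on the minus strand, and its motif begins at base 5 after the RefSeq start. Ccn2 spans chromosome 10, 24595442 to 24598683, and Tead1 chromosome 7, 112679318 to 112906807.

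Total counts ran from 1820545 to 8291024 per library. Levels are given in CPM, normalised counts computed on TMM-scaled library sizes, and a floor of 3 counts equals 0.336 to 1.64 CPM depending on the library. Markers fixed for granulosa cells summed to 72196 to 90929 CPM in Control and 64686 to 86149 CPM in Tyrphostin libraries, and all 8 had counts. Of the 6 granulosa markers tested in the main comparison 3 passed the edgeR threshold, as did 10.6% of all genes, and all 3 were higher in Tyrphostin libraries, namely Cyp19a1 (log2 ratio 2.35), Nr5a2 (2.18) and Fshr (0.83), while Cyp11a1, Inha and Inhba lay between -0.07 and 0.05. None of the markers tested in the other lists passed with edgeR, and Zp2 of the oocyte list and Kdr of the endothelial list had an unadjusted p under 0.05. Theca and stroma markers (9 of 9 with counts) summed to 268 to 2168 CPM in Control and 277 to 3094 CPM in Tyrphostin libraries, where Tyrphostin 5 was highest and the next was 1090 CPM. Oocyte markers (8 of 8) ranged from 19.1 to 88.7 and from 20.8 to 225 CPM, the latter in Tyrphostin 6, with the next at 102 CPM. Endothelial markers (5 of 5) ranged from 8.54 to 88.7 and from 8.77 to 32.9 CPM, and immune markers (5 of 5) from 17.4 to 462 and from 18.3 to 855 CPM. The 855 CPM was again Tyrphostin 5, and the next Tyrphostin library held 56 CPM. Only 2 of 5 endothelial and 2 of 5 immune markers passed the filter and were tested. No marker of these lists was at 0 throughout either group. The part of these cell types in the results below was not tested.

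Levels were first set in order within the Control libraries, per kilobase of exon so that genes of different length can be compared. Ccn2, a secreted matricellular protein, was far above the rest, with a median of 352 CPM per kb and a range from 204 to 1110. Ccn1, its close relative, followed at 9.50 CPM per kb (5.50 to 17.2). No Control value of Ccn2 overlapped any of Ccn1. Tead1, the TEAD transcription factor of the list, stood at 4.03 CPM per kb (1.61 to 7.59) and the coactivator Wwtr1 at 3.54 (1.95 to 5.58), and these neighbours overlapped. The kinases Lats1 (1.46) and Lats2 (1.42), the coactivator Yap1 (1.28) and the angiomotin family gene Amotl2 (1.21) followed, and all 4 ranges overlapped. In Tyrphostin libraries the first 4 places were the same, and Amotl2 came next at 2.36 CPM per kb.

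**Figure D1:**
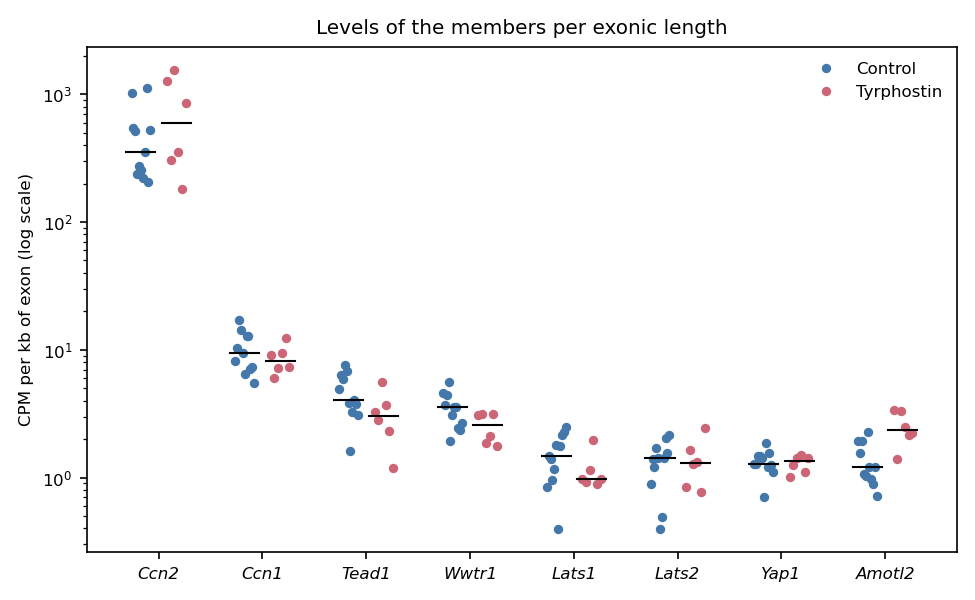
Levels of the 8 members tested, in CPM per kilobase of exon on a log axis, with 1 point per library (11 Control, 6 Tyrphostin) and a line at the median of each group. Ccn2 lies above all other members in every library, from 180 to 1547 CPM per kb.

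The main comparison asked which members differed between Tyrphostin and Control libraries, with batch as a term of edgeR's quasi-likelihood test over all genes. Amotl2, which encodes a scaffold that can hold YAP at cell junctions and is itself a YAP target, rose 1.94-fold, and it was the only member to pass an adjusted p of 0.05. Among all 9603 genes tested 10.6% passed, and 4.35% passed as higher, so 1 of 8 members is close to the background. The median log2 ratio of the 8 members was -0.15, with 3 positive and 5 negative, beside 0.00 (5.42e-05) over all genes. With library totals used for scaling the median of all genes moved to 0.15, and every change given here is relative to TMM scaling. In a bulk sample, fewer cells of a type and less RNA per cell cannot be told apart.

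Amotl2 was measured at 8.86, 20.7 and 21.4 CPM in the Tyrphostin libraries of batch 1, where Control libraries ran from 6.49 to 14.2 CPM with a median of 11. In batch 2 the Tyrphostin libraries held 13.5, 14 and 15.6 CPM, and the Control libraries 4.48, 5.65, 6.16, 7.61 and 7.67 CPM. The groups overlapped in batch 1 through Tyrphostin 2 and did not overlap in batch 2. All 3 Tyrphostin libraries lay above every Control library for 4.21% of genes in batch 2, and for 5.04% of genes, no member among them, in batch 1. Over both batches Control libraries averaged 8.47 ± 3.17 CPM (SD, n = 11) and Tyrphostin libraries 15.7 ± 4.73 CPM (SD, n = 6). The log2 ratio of Tyrphostin over Control was 0.95 ± 0.22 (SE; adjusted p by edgeR = 0.00535), with a 95% interval from 0.51 to 1.40 on the log2 scale. A total of 3 of 6 Tyrphostin libraries exceeded every Control library.

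Within batches the Amotl2 difference had the same direction but passed the threshold in neither with edgeR. The log2 ratio was 0.75 ± 0.32 (SE; adjusted p by edgeR = 0.184) in batch 1 and 1.19 ± 0.26 (SE; adjusted p by edgeR = 0.0676) in batch 2. With DESeq2 it passed in batch 2. The difference between these effects was 0.44 ± 0.44 (SE, unadjusted p = 0.326 by the edgeR interaction test), about the size of its error. Omission of any of the 17 libraries kept the call, and the least favourable case was Tyrphostin 1 (edgeR adjusted p = 0.0215). The call was lost in a fit of 12 libraries whose Controls were all of batch 1, so that batch 1 alone informed the comparison, with a log2 ratio of 0.74 (edgeR adjusted p = 0.158).

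**Figure D2:**
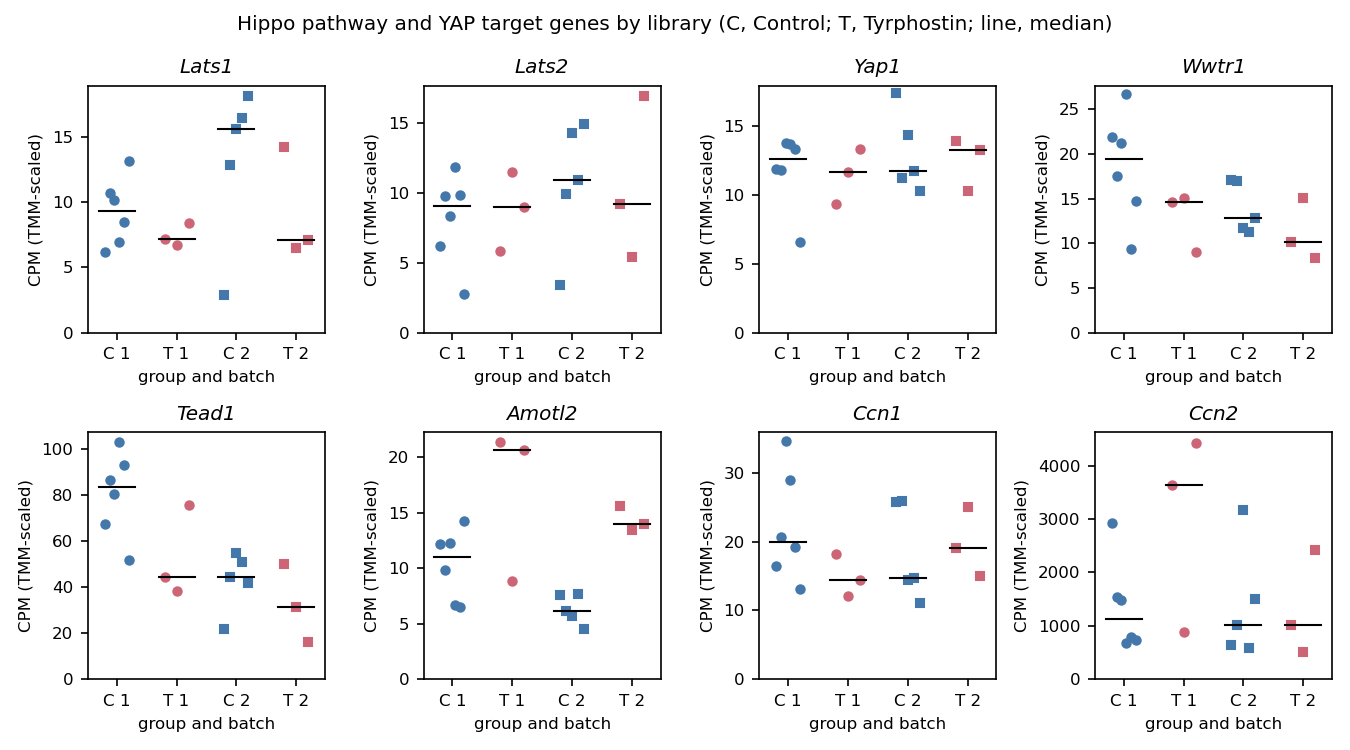
CPM of the 8 members tested in each library, by group and batch (C 1 and C 2, Control of batch 1 and 2; T 1 and T 2, Tyrphostin of batch 1 and 2), with a line at the median. Amotl2 in batch 2 is the panel pair without overlap, at 13.5 to 15.6 CPM against 4.48 to 7.67.

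Neither Ccn1 nor Ccn2 passed the test. Ccn2 ranged from 584 to 3174 CPM with a median of 1008 in Control and from 514 to 4426 with a median of 1717 in Tyrphostin libraries, and 3 of 6 Tyrphostin libraries lay inside the Control range, 2 above it and 1 below. In batch 1 the Tyrphostin libraries held 878, 3645 and 4426 CPM, and 2 of 3 lay above every Control library of either batch. In batch 2 they held 514, 1014 and 2420 CPM, inside or below the Control range. The log2 ratio was 0.59 ± 0.47 (SE; adjusted p by edgeR = 0.5), with a 95% interval from -0.41 to 1.59. It was 1.14 ± 0.54 (SE) in batch 1 and -0.07 ± 0.62 (SE) in batch 2, and the interaction of -1.20 ± 0.93 (SE) had an unadjusted edgeR p of 0.214. Leaving out Tyrphostin 3 lowered the value to 0.32.

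Library names divide the Control libraries by a first number into sets, whose meaning the labels do not state. Ccn2 stood at 1481, 1545 and 2934 CPM in set 1 and at 673, 726 and 789 CPM in set 2, both of batch 1, with no overlap. The highest Control value, 3174 CPM, was the only library of set 5, and set 6 held both the lowest, 584 CPM, and 1510 CPM. The SD was 66.6% of the mean over Control libraries for Ccn2 and 21.9% for Yap1. An antisense transcript, Gm15270, covers 23.2% of the Ccn2 exons in GENCODE M21, and reads of the pair cannot be told apart without strand.

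**Figure D3:**
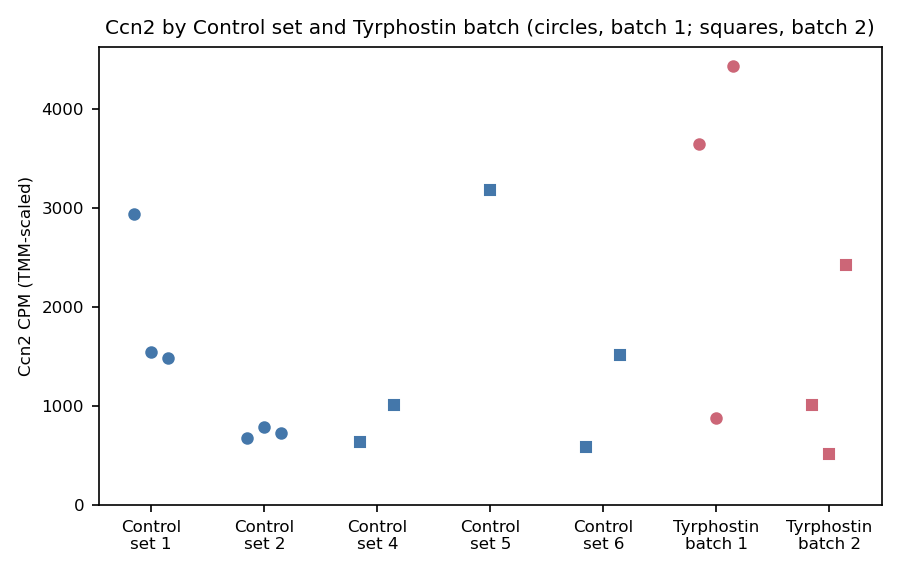
Ccn2 CPM in each library, by the set number of the Control library names and by batch for Tyrphostin. Set 2 lies between 673 and 789 CPM, below set 1 at 1481 to 2934 CPM, and the Tyrphostin libraries extend from 514 to 4426 CPM.

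Ccn1, like Ccn2 an immediate secreted product of YAP activity, ranged from 11.1 to 34.7 CPM with a median of 19.2 in Control and from 12.1 to 25.1 with a median of 16.6 in Tyrphostin libraries. The 6 Tyrphostin values all lay inside the Control range. The highest of them, 25.1 CPM, was that of Tyrphostin 5, the library with the highest theca and stroma markers and the highest immune markers. In the same library Ccn2 was lowest, at 514 CPM, and the part of these markers was not tested. The log2 ratio was -0.25 ± 0.23 (SE; adjusted p by edgeR = 0.578), with a 95% interval from -0.73 to 0.24. Within batch 1 it was -0.57 ± 0.30 and within batch 2 it was 0.09 ± 0.32 (SE).

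Ankrd1, an ankyrin repeat protein of muscle and a standard readout of YAP activity, was hardly detected. Control libraries held 0 to 4 counts, 13 in all, and 5 of 11 held none. Tyrphostin libraries held 0 to 2 counts, 3 in all, and 4 of 6 held none. Levels lay at or under 0.767 CPM in every library, and no difference was detectable at this depth.

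Among the kinases, Lats1 ranged from 2.89 to 18.1 CPM with a median of 10.7 in Control and from 6.47 to 14.3 with a median of 7.13 in Tyrphostin libraries. This gave a log2 ratio of -0.40 ± 0.28 (SE; adjusted p by edgeR = 0.416), with a 95% interval from -0.97 to 0.18. Lats2 ranged from 2.74 to 14.9 CPM with a median of 9.88 in Control and from 5.39 to 17 with a median of 9.08 in Tyrphostin libraries. The log2 ratio of Lats2 was 0.03 ± 0.29 (SE; adjusted p by edgeR = 0.96), and its sign turned negative with Control libraries summed by set (-0.04). Gm49361, a gene model on the same strand, shares 42.4% of the Lats2 exons, so the authors' counting could have dropped or split reads there.

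The coactivators and their DNA-binding partner also gave no call. Yap1 was the steadiest member, at 6.57 to 17.3 CPM with a median of 11.9 in Control and 9.33 to 13.9 with a median of 12.4 in Tyrphostin libraries. This gave a log2 ratio of -0.05 ± 0.18 (SE; adjusted p by edgeR = 0.899), with a 95% interval from -0.43 to 0.32, and the ratio was 0.11 with total-count scaling. Wwtr1 ranged from 9.31 to 26.7 CPM with a median of 16.9 in Control and from 8.39 to 15.1 with a median of 12.4 in Tyrphostin libraries. For Wwtr1 2 of 6 Tyrphostin libraries lay below every Control library, and the log2 ratio was -0.43 ± 0.21 (SE; adjusted p by edgeR = 0.215), with a 95% interval from -0.87 to 0.00 (0.0032).

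Tead1 had an unadjusted edgeR p of 0.0394, a level under 0.05 that 23.7% of genes also reached, and did not pass after adjustment. In batch 1 its Tyrphostin libraries held 38.2, 44.3 and 75.9 CPM against 52 to 103 CPM in Control libraries with a median of 83.5. In batch 2 they held 16.2, 31.5 and 50.1 CPM against 21.8, 41.8, 44.5, 50.8 and 54.7 CPM. The groups overlapped in both batches. The log2 ratio was -0.50 ± 0.23 (SE; adjusted p by edgeR = 0.183), with an unadjusted 95% interval from -0.97 to -0.03. The within-batch values were -0.60 ± 0.27 and -0.39 ± 0.37 (SE).

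**Figure D4:**
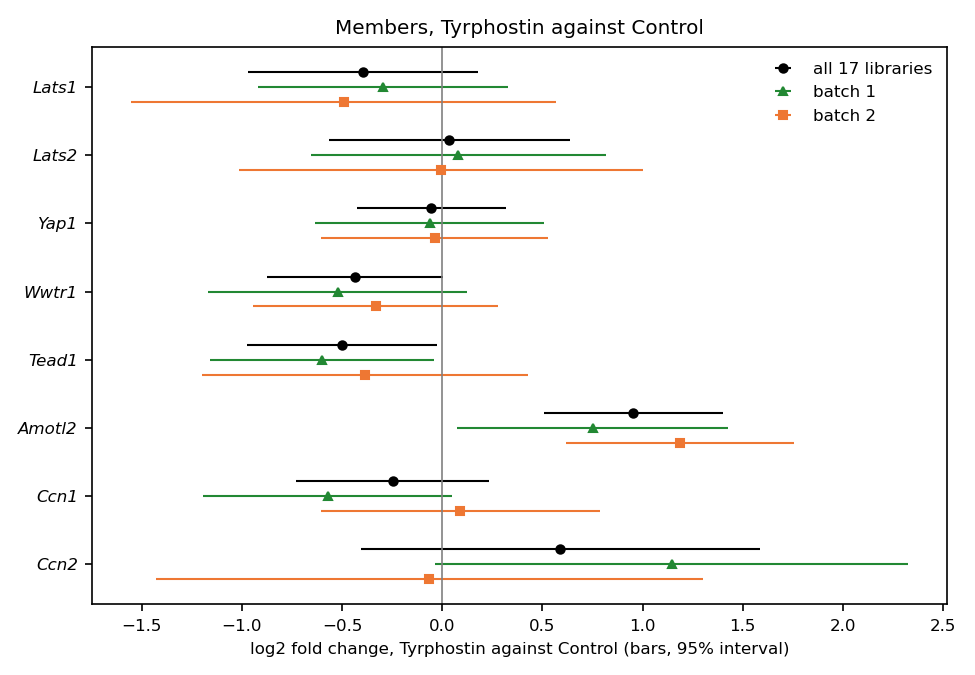
Log2 ratios of the 8 members tested, Tyrphostin against Control, in the 17-library fit that includes batch and within each batch, with 95% intervals from edgeR's standard errors. The intervals are not adjusted for the number of genes tested. Those of Amotl2 lie above 0 in all fits shown, although edgeR called it within neither batch. Those of Tead1, not called, lie below 0 in the fit of all libraries and in batch 1. Those of Ccn1 and Ccn2 in the fit of all libraries include 0.

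In all, edgeR called 0 of 8 members within batch 1, where 6.73% of genes passed, 2.94% higher and 3.79% lower. An unadjusted edgeR p under 0.05 was found for 2 members there (Amotl2 and Tead1) and for 21.2% of genes, and DESeq2 and limma-voom also called 0 members. Within batch 2, where 0.621% of genes passed, 0.193% higher and 0.427% lower, edgeR and limma-voom called 0 members and DESeq2 called 1, Amotl2, the only member with an unadjusted edgeR p under 0.05, beside 10.7% of genes. The interaction of treatment and batch was called for 0 of 8 members with edgeR, DESeq2 and limma-voom, and 0 had an unadjusted p under 0.05. Over all genes 0% passed that test with edgeR and 3.56% had an unadjusted p under 0.05.

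Between batches of Control follicles Tead1 was the only member called. It stood at 80.4 ± 18.3 CPM (SD, n = 6) in batch 1 and 42.7 ± 12.8 CPM (SD, n = 5) in batch 2, a log2 difference of -0.90 ± 0.24 (SE; adjusted p by edgeR = 0.0227). Of all genes 11% passed this test, 5.5% as lower in batch 2, and 1 of 8 members did. Tead1 and Amotl2 had an unadjusted edgeR p under 0.05, as had 25.7% of genes. The call was lost with total-count scaling (edgeR adjusted p = 0.0681) and without Control 5 (edgeR adjusted p = 0.0504). Amotl2 was 10.3 ± 3.18 CPM (SD, n = 6) and 6.31 ± 1.35 CPM (SD, n = 5) in the same batches (log2 difference -0.67 ± 0.28, SE; edgeR adjusted p = 0.135).

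Whether the target genes moved together from library to library was examined after the mean of each batch and treatment had been removed. None of the 3 pairs of Amotl2, Ccn1 and Ccn2 gave a permutation p under 0.05 over 17 libraries. For Ccn1 and Ccn2 Pearson's r was -0.22 (permutation p = 0.426, adjusted p = 0.64) and Spearman's rho was -0.27 (permutation p = 0.325, adjusted p = 0.579). For Amotl2 and Ccn2 r was 0.32 (permutation p = 0.301, adjusted p = 0.64) and rho was 0.25 (permutation p = 0.386, adjusted p = 0.579). This r was 0.03 without Tyrphostin 2 and Control 5, the libraries farthest from the median in Amotl2. For Amotl2 and Ccn1 r was 0.12 (permutation p = 0.662, adjusted p = 0.662) and rho was 0.08 (permutation p = 0.758, adjusted p = 0.758). Without Control 3 and Control 6, the libraries farthest from the median in Ccn1, r was -0.41 for Ccn1 and Ccn2. Without Tyrphostin 2 and Control 5 it was -0.01 for Amotl2 and Ccn1.

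On the same centred scale, the genes most like each target among 6332 candidates were listed as a description. For Ccn2 these were Rbbp4, Mapre2 and Hspa4, with r from 0.82 to 0.84 over 17 libraries. For Ccn1 they were Mien1, AW551984 and Hsd17b7, with r from 0.80 to 0.81, and for Amotl2 Dlst, Eef2 and Tcf25, with r from 0.82 to 0.88. Over all candidates the median r was 0.034 for Ccn2, 0.0026 for Ccn1 and 0.0080 for Amotl2. The genes named were picked as the highest of 6332 values over 17 libraries, so a high r follows partly from that choice, and none was tested. None of these 9 was a member of the pathway lists. All were measured in the same libraries as the member they resemble, on the same scaled library sizes, and any remaining part of depth was not tested.

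The wider pathway was read from a list of 30 regulators, of which 25 were tested. A total of 5 changed in the main comparison, 1 higher and 4 lower, against 4.35% and 6.25% of all genes, and the median of the list was -0.07. Frmd6, a FERM-domain protein that acts upstream of the kinase cascade, fell, and was lower in all 6 Tyrphostin libraries. Control libraries ranged from 42.2 to 81.4 CPM with a median of 57.8, and Tyrphostin libraries held 20.7, 23.2, 24, 24, 24.1 and 27 CPM. The groups did not overlap, which was so in this direction for 1% of genes tested. Frmd6 had a log2 ratio of -1.30 ± 0.16 (SE; adjusted p by edgeR = 7.31e-06), with -1.34 in batch 1 and -1.26 in batch 2.

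Amot, the founding angiomotin and a paralogue of Amotl2, changed the opposite way. Its log2 ratio was -1.17 ± 0.33 (SE; adjusted p by edgeR = 0.0254). Amot was called within batch 1 (edgeR adjusted p = 0.0344) and not within batch 2 (0.461). It averaged 60.9 ± 36.4 CPM (SD, n = 11) in the Control group against 26.2 ± 22.7 CPM (SD, n = 6) under the inhibitor. Its Control libraries ran from 74.5 to 106 CPM in batch 1 and from 5.25 to 41 CPM in batch 2. The call was lost without the batch term (edgeR adjusted p = 0.256), without a filter (0.123), with total-count scaling (0.0584) and in the fit of 12 libraries (0.0548). Without Tyrphostin 1, 2, 5 or 6 the adjusted p was 0.0529, 0.0629, 0.0601 or 0.0703 (edgeR). The third angiomotin gene, Amotl1, had a log2 ratio of 0.13 ± 0.21 (SE; adjusted p by edgeR = 0.767).

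Vgll4, which competes with YAP for TEAD factors, fell from 26.3 ± 5.73 CPM (SD, n = 11) in Control to 13.6 ± 5.57 CPM (SD, n = 6), with a log2 ratio of -0.94 ± 0.22 (SE; adjusted p by edgeR = 0.0068). It was not called within batch 1 (edgeR adjusted p = 0.113) or batch 2 (0.139), nor in the fit of 12 libraries (0.102). The protocadherins Fat4 and Fat1 changed in opposite directions. Fat4 had a log2 ratio of -0.93 ± 0.24 (SE; adjusted p by edgeR = 0.0154), lost without Tyrphostin 2 (0.051) and with total-count scaling (0.0518). Fat1 rose from 1519 ± 560 CPM (SD, n = 11) in Control to 2295 ± 893 CPM (SD, n = 6), with a log2 ratio of 0.62 ± 0.16 (SE; adjusted p by edgeR = 0.0139). These CPM are not divided by length, and Fat1 has 15655 bases of exon. Without the batch term Fat1 and Fat4 were not called, with edgeR adjusted p of 0.203 and 0.0924, and in the fit of 12 libraries the values were 0.0878 and 0.0642. Among regulators not called, Mob1a, an adaptor of the LATS kinases, had 0.05 ± 0.14 (SE) and the kinase gene Taok3 -0.50 ± 0.22 (SE) on the log2 scale.

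Beyond the members, 17 genes of a published YAP/TAZ target signature were examined and 13 were tested. Their median log2 ratio was -0.26, and 2 were lower and 0 higher by edgeR, against 6.25% and 4.35% of all genes, while DESeq2 and limma-voom called 3, the added gene being Rbms3. Axl, a receptor tyrosine kinase, ranged from 92.6 to 317 CPM with a median of 182 in Control libraries. Its Tyrphostin libraries held 60.8, 65.4, 67.3, 68.3, 74.3 and 79.8 CPM, below every Control library, as was so for 1% of genes tested. The log2 ratio of Axl was -1.43 ± 0.21 (SE; adjusted p by edgeR = 7.42e-05), with -1.89 in batch 1 and -0.96, not past the threshold (edgeR adjusted p = 0.148), in batch 2.

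F3, tissue factor, the starter of coagulation, fell from 3753 ± 2090 CPM (SD, n = 11) in Control to 1761 ± 1095 CPM (SD, n = 6), with a log2 ratio of -1.09 ± 0.29 (SE; adjusted p by edgeR = 0.0172). Its call was lost without the batch term (edgeR adjusted p = 0.132), in the fit of 12 libraries (0.165) and without Tyrphostin 6 (0.0544). F3 was called within neither batch 1 (edgeR adjusted p = 0.126) nor batch 2 (0.274). Crim1 and Nt5e, the signature genes not called with the highest average log2 CPM, had -0.25 ± 0.17 and -0.31 ± 0.32 (SE) on the log2 scale. Of the other 4 CCN family genes only Ccn4 was tested, Ccn3, Ccn5 and Ccn6 having at most 5, 11 and 2 counts in a library. Ccn4 ranged from 1.20 to 6.82 CPM in Control and from 0.717 to 4.31 CPM in Tyrphostin libraries, with a log2 ratio of -0.97 ± 0.42 (SE; adjusted p by edgeR = 0.155).

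**Figure D5:**
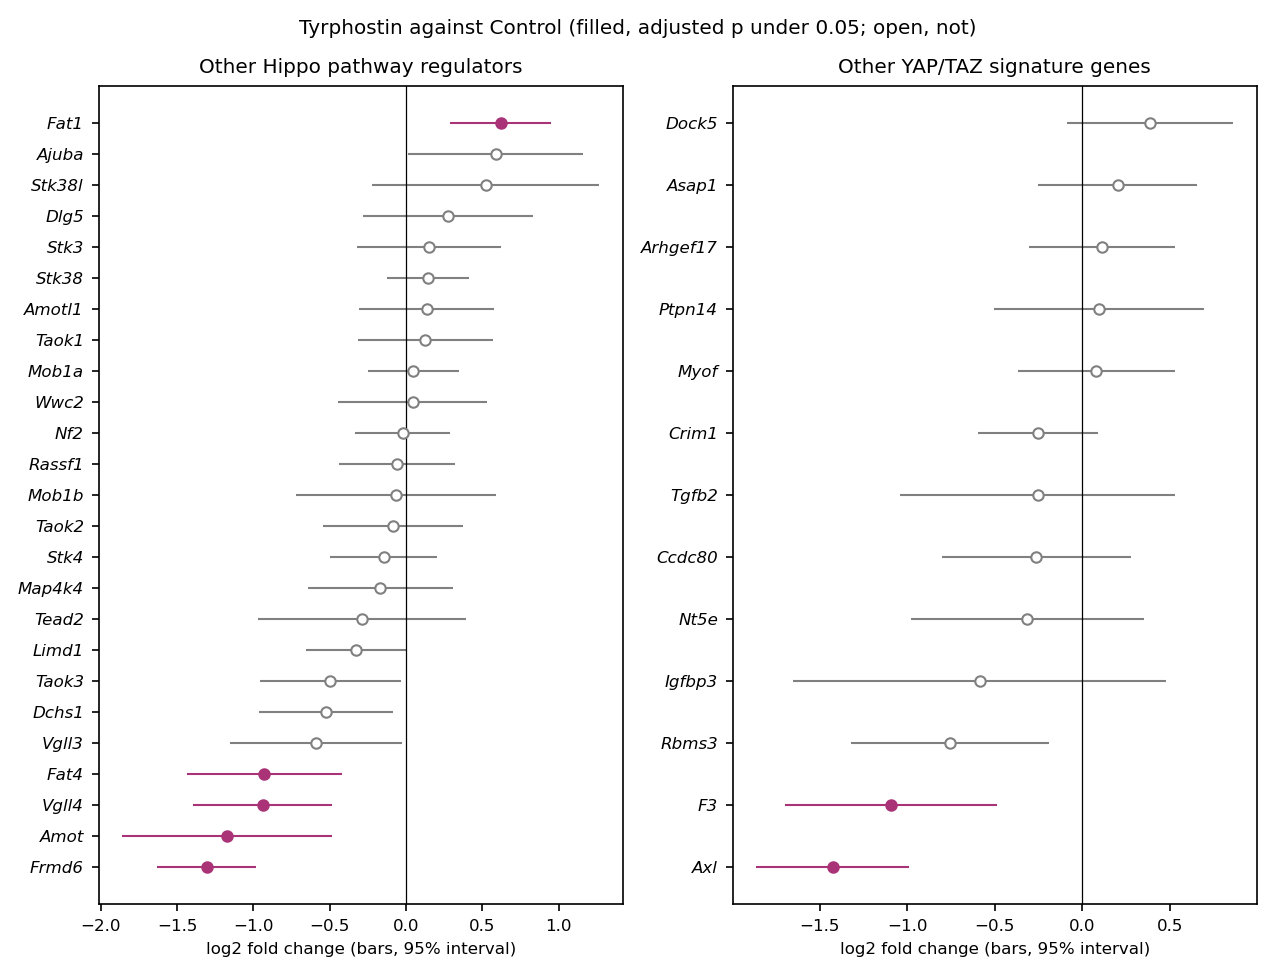
Log2 ratios, Tyrphostin against Control with batch as a term, of the 25 regulators and 13 signature genes tested, with 95% intervals; filled points have an edgeR adjusted p under 0.05. Fat1 is the only filled point above 0, and Frmd6 (-1.30) and Axl (-1.43) are the lowest of their lists.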

How the data were processed

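Whole-number counts per gene symbol were deposited for 17 libraries. The submitters' processing notes name STAR, HTSeq and GRCm38; versions, settings, annotation and strand are not given in the sources used here. Of 25198 rows, 3576 held no count.

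Counts were tested in R 4.3.3 with edgeR 4.0.16: filterByExpr on treatment (on batch for Control libraries alone), TMM scaling, robust quasi-likelihood F tests, batch as a term, and Benjamini-Hochberg adjustment over all genes tested at 0.05. The standard error was the log2 fold change divided by the square root of F, and 95% intervals used the t distribution. Floors of 3 counts cover counting error only. Correlations used log2 CPM (prior count 2) and 100000 permutations within batch and treatment.

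Members, gene lists and tests were chosen with earlier results of these data known. By rule, the text names all members, list genes called, up to 2 abundant list genes not called, and 3 genes most like each target with average log2 CPM of at least 3; Amotl1 and Rbms3 were added after their values were seen. Exon lengths came from GENCODE M21. Alternatives were DESeq2 1.42.0, voom weights in limma 3.58.1, RLE or total-count scaling, other filters, no batch term, summed Control sets, a threshold of 0.01, a replicate block and omission of each library. The code was tested on simulated counts.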

Additional observations from a re-analysis of the deposited data

Results flagged for a closer look

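Each of the 8 members tested was searched, on the log2 CPM scale, for a library far from the rest of its group, in Control libraries of batch 1, Control libraries of batch 2 and Tyrphostin libraries. Of these 24 groups 4 had such a library. Chance would give about 1.2 if the groups were independent, which groups that share libraries are not. No share over all genes is given here, so the count is not a result about the members. Control 7, flagged for both Lats1 and Lats2, was also the lowest Control library for Tead1 (21.8 CPM) and the highest for Yap1 (17.3 CPM). Yap1 was low in Control 6, the library of lowest depth, at 2.81 log2 CPM (12 counts) while the rest of that group ran from 3.61 to 3.82. Lats1 was low in Control 7 at 1.73 log2 CPM, while the rest of Control batch 2 ran from 3.73 to 4.21. The same library was low in Lats2, at 1.94 log2 CPM against 3.38 to 3.94. Lats1 was high in Tyrphostin 4 at 3.88 log2 CPM, against 2.79 to 3.14 in the other Tyrphostin libraries. Without the library in question the log2 fold changes over all libraries were -0.10 for Yap1, -0.51 (Control 7) and -0.56 (Tyrphostin 4) for Lats1 and -0.07 for Lats2, and none of them passed the edgeR threshold.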

How the results depend on the processing

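The Amotl2 call held under 8 of the 9 alternatives planned for the fit (RLE and total-count scaling, DESeq2, limma-voom, both filters, no batch term and summed Control sets), and no other member was called under any of them. Numbers 1 to 6 occur in the titles of both groups. Numbers 4 to 6 cross batches, deviations of same-numbered libraries correlated with r from 0.03 to 0.32, and 2 of 6 Tyrphostin libraries correlated best with the Control library of their number, so the numbers were not taken to pair samples. With a replicate block over those 12 libraries 624 genes were called in place of 1018, and 0 members; Amotl2 had 0.49 (adjusted p = 0.433), and Mob1a -0.18. Vgll4 (adjusted p = 0.113) and Fat1 (0.236) were also not called with the block. The same 12 libraries without the block, added after seeing the data, gave 601 genes and 0 members, and in both fits the batch term leaves batch 1 alone to inform the comparison. Omission of Control 6, Control 7 and Tyrphostin 5 together, also added later, kept Amotl2 as the only member called and moved Lats2 to -0.0058. Without the batch term 619 genes were called. The main fit, which has the batch term, gave 478 genes at 0.01, a stricter threshold. With total-count scaling 64.4% of calls were higher (715 higher, 396 lower), against 41.1% (418 and 600).

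Leaving out each library in turn gave 708 to 1314 genes and 1 member in every fit. Yap1 ran from -0.10 to 0.0035, Lats2 from -0.17 to 0.18, Mob1a from 0.0056 to 0.10, and r of Amotl2 and Ccn1 from -0.012 to 0.33. Yap1 was 0.11 with total counts and Lats2 -0.042 with Control libraries summed by set. Within batch 1, 634 genes became 394 (without Tyrphostin 2) to 687. Within batch 2, 61 genes became 11 (without Tyrphostin 6) to 221 (without Control 7), and 303 with DESeq2 and 222 without a filter. The interaction gave 79 genes without a filter in place of 0. Between Control batches 1004 genes became 660 (without Control 3) to 1063. Where no cause is named, the cause was not tested. Depth limits Ankrd1 most, with at most 4 counts in a library.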

Other observations

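Some genes of the wider pathway lists also differed between the batches of Control follicles. Of the 25 regulators tested 6 passed the edgeR threshold, 1 higher and 5 lower in batch 2, and of the 13 signature genes 4 did, 1 higher and 3 lower, against 11% of all 9128 genes. Of all genes 5.5% passed as higher and 5.5% as lower, and the lists were not tested as sets. The list genes that passed are named after their values were seen. Among the regulators Taok1, a kinase upstream of the cascade, was higher in batch 2 (log2 difference 1.33), while Amot (-1.83), Fat4 (-1.04), Taok2 (-0.90), Fat1 (-0.89) and Mob1a (-0.76) were lower. Of the signature genes Ccdc80 was higher (1.20), and F3 (-1.13), Axl (-0.86) and Myof (-0.84) were lower. With total-count scaling 76.3% of all calls in this comparison were higher in batch 2, against 50% with TMM, and the median log2 difference of all genes was 0.23 against 0.04.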
